A study of Rattus norvegicus with 6 samples.

Results

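Genes of the RGS family (regulators of G protein signalling) were compared between brainstem cell cultures of 2 inbred rat strains, the hypertensive SHR (spontaneously hypertensive) and the normotensive WKY (Wistar Kyoto). The family was taken as 10 genes listed by name, Rgs2, Rgs3, Rgs4, Rgs5, Rgs7, Rgs8, Rgs10, Rgs12, Rgs14 and Rgs16, and every probe was used whose single gene symbol in the platform annotation is a listed gene. This gave 13 probes for 9 genes, of 33849 probes and 12198 named genes in the series. No probe carries the single symbol Rgs16, and it has no value here. The genes Rgs4, Rgs7, Rgs12 and Rgs14 have 2 probes each and the other 5 have 1.

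Each strain contributed 3 samples, each of total RNA from 3 pooled dishes read on its own CodeLink array with biotin as the only label. No treatment or transgene is named for either strain, and the rats' age and the type of cell cultured are not named in the labels. The design text calls the samples of a strain independent biological replicates, without naming litters or culture days, so p-values measure the spread between these pools. The arrays' own medians lay between 439 and 571 intensity units and were 520 on every array after the submitters' quantile normalization. Aif1, a microglial calcium-binding protein, lay at 35955 to 40310.1 units and Gfap, the astrocyte filament protein, at 12914 to 18963 units. In the same marker lists the probes of Trem2, a microglial receptor, and Slc1a2, an astrocytic glutamate transporter, were dim, at 34.0 to 85.1 and 76.4 to 188 units. Among neuronal markers, Stmn2, a tubulin-binding protein of growing axons, lay at 9529 to 14009 units, while Snap25, a synaptic fusion protein, lay at 36.9 to 104 units.

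RGS proteins share a domain that speeds the hydrolysis of GTP by the alpha subunit of heterotrimeric G proteins, and so shorten the signal of G protein coupled receptors. Members of the R4 subfamily (Rgs2, Rgs3, Rgs4, Rgs5, Rgs8 and Rgs16) are mostly small proteins built around that domain. The R7 subfamily (Rgs7) binds the beta subunit Gnb5 through a gamma-like domain, and in the R12 subfamily (Rgs10, Rgs12 and Rgs14) the larger proteins also carry a GoLoco motif, which binds inactive alpha subunits. In the brain these proteins limit responses to transmitters such as noradrenaline, acetylcholine, opioids and serotonin, and in blood vessels they limit responses to angiotensin and other constrictors.

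Rgs4 stood apart from the other members. It was brighter in SHR at both of its probes, by 1.84-fold and 1.65-fold, with no overlap between the strains, whereas every other member had an interval for the strain difference that included 0. No RGS probe passed the threshold of adjusted p 0.05 (limma, Benjamini-Hochberg over all 33249 probes tested). Among all probes tested 0% passed, with 7.65% at an unadjusted p under 0.05. Of the 13 RGS probes, 2 had an unadjusted p under 0.05, and both belong to Rgs4, so that they are not independent observations. The strains' values did not overlap at 3 of the 12 RGS probes valid on all 6 arrays, against 13.4% of all such probes. Besides the pair of Rgs4 probes this was an Rgs12 probe with a difference of -0.07 (log2). The signs leaned towards WKY elsewhere: 10 of the 11 RGS probes of other genes were lower in SHR, most by little, against 51.6% of all probes tested. These 11 probes belong to 8 genes, so they are not all independent, and the count leaves out Rgs4, whose sign was known. With the brightest complete probe of each gene, 7 of 9 members were lower, against 50.2% of all named genes. The lean was not particular to the members. Counted likewise, 9 of 10 RGS partners and GoLoco proteins and 7 of 9 receptor kinases and arrestins were lower. So were 10 of 15 G protein effectors, 9 of 14 beta and gamma subunits and 7 of 13 alpha subunits, but only 3 of 10 other RGS domain genes. Without normalization between arrays the Rgs2 probe and both Rgs12 probes turned to higher in SHR. The median over the 13 RGS probes was -0.13 against -0.01 over all probes tested.

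**Figure D1:**
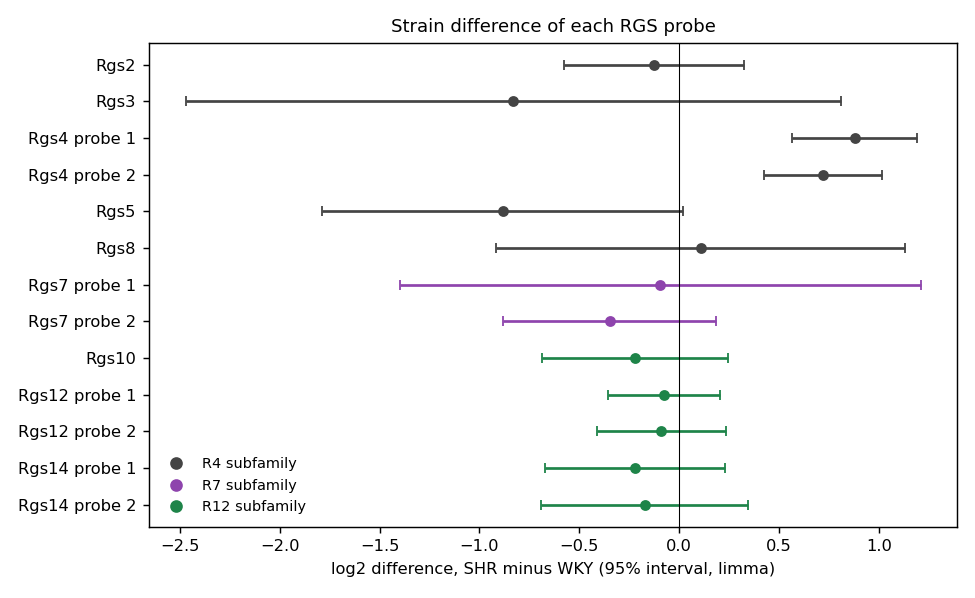
Difference in log2 intensity, SHR minus WKY, for each of the 13 RGS probes (points, with 95% intervals from limma, coloured by subfamily). The intervals of the 2 Rgs4 probes lie wholly above 0, from 0.57 to 1.19 and from 0.42 to 1.02, and the intervals of the other 11 probes include 0.

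Rgs4 acts on alpha subunits of the Gi and Gq classes and is known as a regulator with high expression in neurons. On the first probe the SHR arrays measured 660.3, 626 and 743 units and the WKY arrays 346, 384 and 372 units. On the second probe they measured 755, 669 and 759 units in SHR and 432, 431 and 460.0 units in WKY. Every SHR value exceeded every WKY value at both probes, and within a strain the arrays lay close together. In log2 the first probe had a mean of 9.40 ± 0.13 in SHR against 8.52 ± 0.08 in WKY (SD, n = 3 each). The strains differed there by 0.88 ± 0.13 (SE), a SHR to WKY ratio of 1.84 with a 95% interval of 1.48 to 2.29. The second probe had 9.50 ± 0.10 in SHR against 8.78 ± 0.05 in WKY (SD, n = 3 each), a log2 difference of 0.72 ± 0.12 (SE) and a ratio of 1.65 with an interval of 1.34 to 2.02. The unadjusted p in limma was 0.000389 (adjusted p = 0.244) and 0.000872 (adjusted p = 0.297). In the order of unadjusted p the probes stood at ranks 53 and 96 of the 33249 probes tested.

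**Figure D2:**
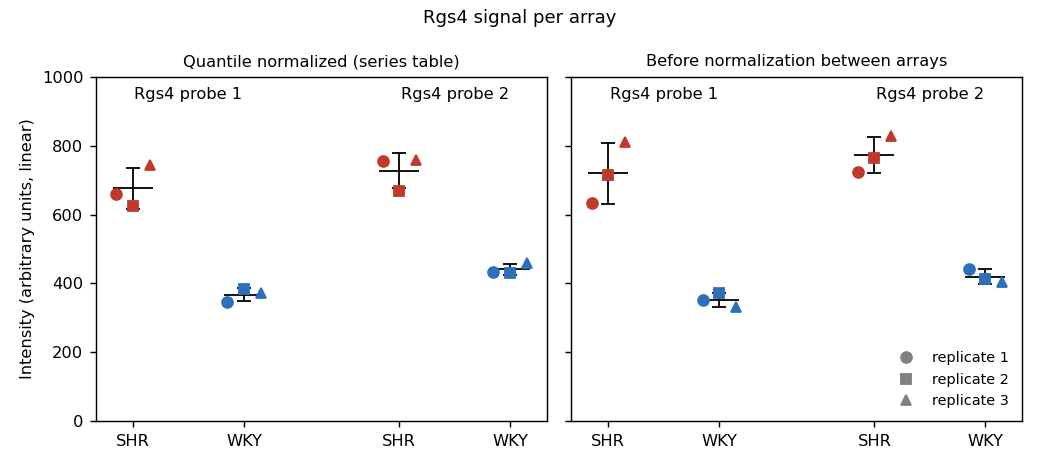
Intensity of the 2 Rgs4 probes on each array (linear axis from 0; red, SHR; blue, WKY; symbol, replicate number; bar, mean ± SD of 3 arrays), after the submitters' quantile normalization (left) and before it (right). On both scales all SHR values lie above all WKY values, also before normalization, where the first probe reads 634 to 810.0 units in SHR and 332 to 372 units in WKY.

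The Rgs4 difference was also present in the intensities before normalization between arrays. There the SHR arrays measured 634, 717 and 810.0 units on the first probe and the WKY arrays 352, 372 and 332 units. The second probe gave 724, 764 and 828 units in SHR against 443, 413 and 403 units in WKY. Over the alternative settings the difference ran from 0.80 to 1.03 at the first probe and from 0.66 to 0.88 at the second, with an unadjusted p of at most 0.0027 and 0.00482 (limma). Leaving out any single array kept it between 0.81 and 0.93 at the first probe and between 0.69 and 0.78 at the second. The adjusted p lay between 0.0984 and 0.615 at the first probe and between 0.149 and 0.669 at the second, so that no alternative called either.

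**Figure D3:**
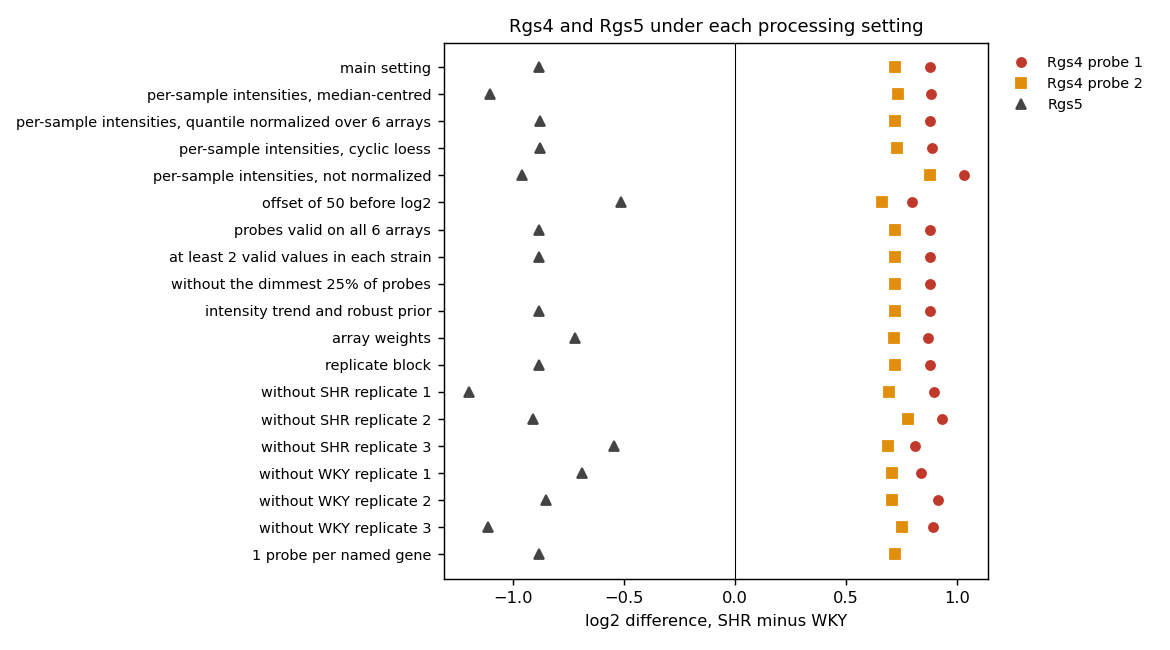
Difference in log2 intensity, SHR minus WKY, of the 2 Rgs4 probes and the Rgs5 probe under the main setting and each alternative (1 row per setting; a missing symbol means that the probe was not in that fit). The Rgs4 symbols stay between 0.66 and 1.03, while Rgs5 runs from -1.20 to -0.51.

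The Rgs4 probes were set against other genes with several probes. Of 3618 genes with at least 2 tested probes, 2072 had the same sign at all of their probes, 52 had the same sign with an unadjusted p under 0.05 at each (limma), and 6 had the same sign with an unadjusted p under 0.01 at each, 4 of them higher in SHR. Rgs4 was among the 6, and ranked 1 of the 3618 when genes were ordered by the largest p among their probes, an order that favours genes with few probes. The comparison was added after the Rgs4 values were seen and reuses the same p-values, so it gives no further support for a strain difference. Both Rgs4 probes are listed for the same RefSeq transcript. The probe sequences were not used here, so how far the probes share target sequence is not known.

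The promoter windows of Rgs4 and of Rgs5, its nearest protein-coding neighbour on that side, are shown because the 2 genes lie side by side and their probes had opposite signs. The windows run from 250 bases before to 50 after the annotated start in RefSeq (GRCr8), and capitals mark matches on either strand to the TATA box (searched as TATAAA), the CCAAT box (searched as CCAAT), the core of a cAMP response element (searched as TGACG) or the GC box (searched as GGGCGG).
Rgs4, chr13:84475835-84476134, minus strand: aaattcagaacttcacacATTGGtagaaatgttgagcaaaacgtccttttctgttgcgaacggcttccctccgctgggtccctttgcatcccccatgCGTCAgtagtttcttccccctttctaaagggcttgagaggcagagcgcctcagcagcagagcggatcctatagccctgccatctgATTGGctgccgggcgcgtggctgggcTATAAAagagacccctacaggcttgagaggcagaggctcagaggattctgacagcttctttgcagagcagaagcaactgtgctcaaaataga
Rgs5, chr13:84380827-84381126, plus strand: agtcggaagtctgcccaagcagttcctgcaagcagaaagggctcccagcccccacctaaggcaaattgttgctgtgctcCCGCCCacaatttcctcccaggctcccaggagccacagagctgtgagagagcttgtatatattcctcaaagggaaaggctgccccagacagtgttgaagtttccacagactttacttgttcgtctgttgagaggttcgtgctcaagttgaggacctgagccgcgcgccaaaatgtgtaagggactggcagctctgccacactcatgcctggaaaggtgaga
The Rgs4 window holds TATAAA at bases -42 to -37, CCAAT in reverse at -232 to -228 and -68 to -64, and TGACG in reverse at -153 to -149, counted from the start. The Rgs5 window holds only GGGCGG, in reverse at -171 to -166. In the promoter table, which matched all 10 listed genes, TATAAA occurs in 14.2% of the 33469 windows and in those of Rgs3 and Rgs4 among the 10, and TGACG occurs in 21.2% and in those of Rgs2, Rgs3 and Rgs4. CCAAT is in 37.5% of all windows and in 4 of the 10, and GGGCGG is in 33.1% and in 7 of the 10, with Rgs4 among the windows without it. These are letter matches, and no binding was measured.

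Genes around Rgs4 gave mixed signs. The 5 nearest measured protein-coding genes on either side in the RefSeq order, Rgs5 among them, have 13 probes, of which 5 were lower in SHR, and 1 had an unadjusted p under 0.05 in limma, against 7.65% of all probes tested, so the count is near the background. That probe was of Hsd17b7, an enzyme of cholesterol synthesis, which read 482, 634 and 485 units in SHR and 746, 739 and 770 units in WKY, a difference of -0.51 ± 0.15 (SE). Its sign is opposite to that of Rgs4.

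Rgs5, known as a marker of pericytes and vascular smooth muscle, was dimmer in SHR in its mean. The SHR arrays read 85.4, 57.3 and 34.4 units and the WKY arrays 134, 107 and 74.4 units. The strains overlapped, since SHR 1 lay above WKY 3, and the probe's mean signal was at the 10.7th percentile of all probes. The difference was -0.88 ± 0.37 (SE), with a 95% interval of -1.79 to 0.02 and an adjusted p of 0.655 in limma. It was -0.54 without SHR 3, -1.20 without SHR 1 and -0.51 with an offset of 50 units before log2, so its size depended on single arrays and on the treatment of dim signal. Pericyte and endothelial markers had 6 of 12 measured genes higher in SHR and a median difference of -0.01, and their array scores (the mean log2 value of the list's genes, each centred on its mean over the 6 arrays) overlapped, at -0.08 to 0.08 in SHR and -0.02 to 0.04 in WKY. Of 6 smooth muscle markers 4 were lower in SHR, with a median of -0.26 and overlapping scores of -0.30 to 0.16 and -0.12 to 0.22. Their part in the Rgs5 value was not tested, and in RNA of mixed cells, fewer cells of a type and less RNA per cell cannot be told apart.

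Rgs2, a regulator selective for the Gq class whose loss raises blood pressure in mice, was bright and close between the strains. It read 3745, 3953 and 3679 units in SHR and 3376, 3983 and 5264 units in WKY. The SHR values lay within the range of the WKY values, with WKY 3 the highest of all. The difference was -0.13 ± 0.19 (SE), and the ratio of SHR to WKY had a 95% interval of 0.671 to 1.25. Without WKY 3 the difference was 0.05.

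The remaining R4 members, Rgs3 and Rgs8, had wide intervals. Rgs3, which acts on the Gi and Gq classes, read 36.7, 47.7 and 193 units in SHR and 168, 162 and 69.8 units in WKY. Its strains overlapped fully, with SHR 3 the brightest and SHR 1 the dimmest array, and the difference of -0.83 ± 0.68 (SE) had a 95% interval of -2.47 to 0.81. Without SHR 3 it was -1.57. Rgs8, known from cerebellar Purkinje cells, read 171, 233 and 181 units in SHR and 240.3, 89.8 and 268 units in WKY. Its SHR values fell between the lowest and the highest WKY value, and the difference was 0.11 ± 0.43 (SE), with an interval of -0.92 to 1.13, and -0.39 without WKY 2.

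Rgs7, an R7 protein that controls Gi and Go signalling in neurons, was measured by a moderate and a dim probe. The brighter probe read 393, 603 and 423 units in SHR and 483, 678 and 633 units in WKY. SHR 2 lay within the WKY range and the other SHR arrays below it, and the difference was -0.35 ± 0.22 (SE), with a 95% interval of -0.88 to 0.19. The dim probe read 45.3 and 118 units in SHR 1 and SHR 2 and 81.4, 114 and 51.3 units in WKY. The fit left out SHR 3, whose entry in the series table was -1658 although the array's own table gave 16.5 units, and the difference of the remaining arrays was -0.09 ± 0.52 (SE). With the per-sample intensities, which include SHR 3, it was -1.03 after median centring, -0.87 after quantile normalization, -0.78 after cyclic loess and -0.88 without normalization, and it passed the threshold in none of them. The size of the difference at this probe thus rests on SHR 3.

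No partner of the R7 proteins passed the adjusted threshold. Gnb5, the beta subunit that R7 proteins need for stability, read 126, 209 and 176 units in SHR and 108, 214 and 114 units in WKY, a difference of 0.27 ± 0.32 (SE). Rgs7bp, which anchors R7 complexes at the membrane, gave -0.11 ± 0.16 (SE) at a bright probe and -0.06 ± 0.16 at a dim probe. Gpr158, an orphan receptor that binds Rgs7, had the smallest p of the list of RGS partners and GoLoco proteins, with 135, 158 and 93.9 units in SHR and 243, 189 and 198 units in WKY. All of its SHR values lay below the WKY values at that probe, for a difference of -0.73 ± 0.23 (SE, adjusted p = 0.569 in limma), while its other, dimmer probe gave -0.35 ± 0.43.

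The R12 members Rgs10, Rgs12 and Rgs14 all stood slightly lower in SHR, with intervals that included 0. Rgs12, a large scaffold with a Ras-binding domain, read 2329, 2293 and 2119 units in SHR and 2347, 2354 and 2391 units in WKY at its first probe. All SHR values lay below the WKY values, but the difference was only -0.07 ± 0.12 (SE). The second probe gave -0.09 ± 0.13 (SE) with overlapping strains, and the ratios of SHR to WKY had 95% intervals of 0.782 to 1.15 and 0.751 to 1.18.

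Rgs14, a relative of Rgs12 known for its role in hippocampal plasticity, read 377, 332 and 321 units in SHR and 476, 316 and 423 units in WKY at its first probe. The second probe read 512, 412 and 431 units in SHR and 461, 417 and 677 units in WKY. The strains overlapped at both, with WKY 1 highest at the first probe and WKY 3 highest at the second, and the differences were -0.22 ± 0.19 and -0.17 ± 0.22 (SE). Rgs10, a small R12 protein abundant in microglia, read 1846, 2638 and 2561 units in SHR and 2878, 2976 and 2313 units in WKY. SHR 1 was the lowest array, the other SHR values fell within the WKY range, and the difference was -0.22 ± 0.19 (SE), or -0.06 without SHR 1. Of the 13 microglial markers, 10 were lower in SHR, against 50.2% of all named genes, and 0 had an unadjusted p under 0.05. Their median was -0.08 (-0.18 with median-centred intensities). Their array scores did not overlap, by a narrow gap, at -0.10 to -0.02 in SHR and 0.03 to 0.08 in WKY. Scores of the RGS members did not overlap either (-0.18 to -0.05 in SHR, 0.04 to 0.17 in WKY). Each gene has equal weight in a score. The largest negative differences among these members were at the dim probes of Rgs3 (-0.83) and Rgs5 (-0.88). Scores without these probes were not computed. Scores of other genes with an RGS domain did not overlap in the other direction (-0.0052 to 0.13 in SHR, -0.14 to -0.0086 in WKY). The gap there was very narrow, between SHR 1 and WKY 3. Rgs1 had the largest difference of that list (0.65), which turned to -0.22 without WKY 1. The part of microglia in the Rgs10 value was not tested.

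**Figure D4:**
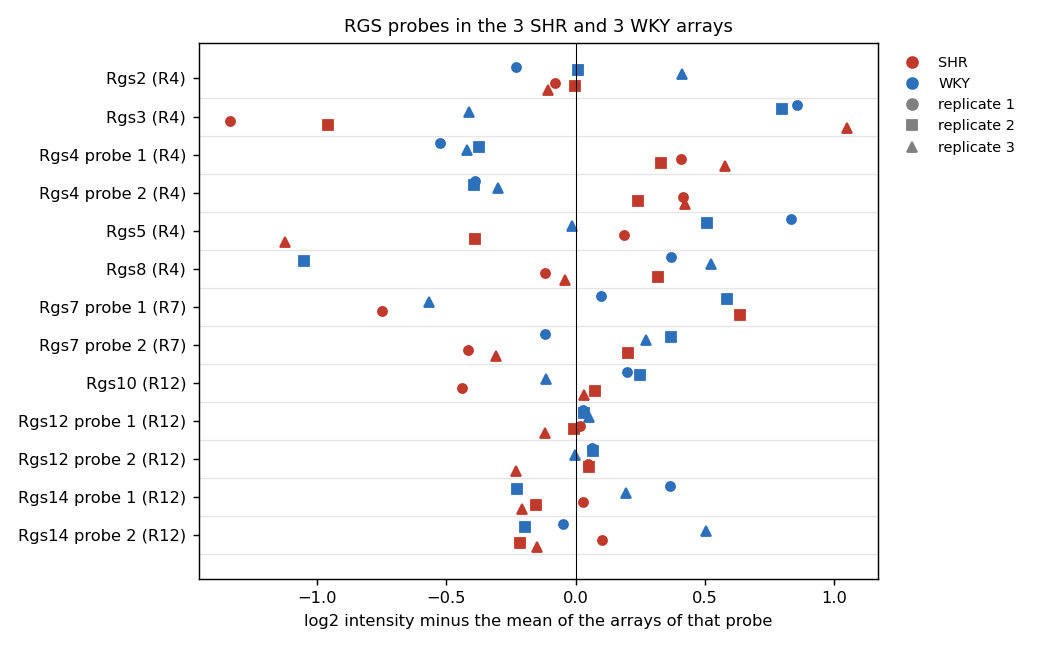
Log2 intensity of each RGS probe on each array, minus the mean of that probe over its valid arrays (red, SHR; blue, WKY; symbol, replicate number; SHR 3 is missing at Rgs7 probe 1). Only the 2 Rgs4 probes show the strains far apart. The spread is widest at the dim probes of Rgs3, Rgs5 and Rgs7 and at the Rgs8 probe, and narrowest at the Rgs12 probes.

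The dim probes of Rgs3 and Rgs5 varied most between arrays and the Rgs12 probes least. The brightest array exceeded the dimmest by 5.25-fold for Rgs3 and by 3.88-fold for Rgs5, whose mean signals were at the 16.7th and 10.7th percentiles of all probes. The dim Rgs7 probe, at the 11.1th percentile, had a ratio of 2.61 without SHR 3, below the 2.98 of Rgs8 at the 30.5th percentile. This ratio of brightest to dimmest array was 1.13 and 1.23 for the Rgs12 probes, at the 75.6th and 77.5th percentiles. The Rgs4 probes, at the 49.8th and 52.0th percentiles, had ratios of 2.15 and 1.76, and there the arrays sorted by strain.

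Among other genes with an RGS domain, no difference passed the threshold. Of 15 such genes listed, 10 were measured, and 0 had an unadjusted p under 0.05 in limma, while 6.7% of all named genes did when each was represented by its brightest complete probe. In SHR 7 were higher and 3 lower, with a median of 0.09. Rgs19, Rgs18, Rgs17, Rgs11 and Rgs9 gave differences of 0.06 ± 0.16, 0.04 ± 0.24, 0.14 ± 0.23, -0.04 ± 0.18 and -0.07 ± 0.14 (SE). The other Rgs9 probes, both dimmer, gave 0.31 ± 0.32 and -0.19 ± 0.34, of opposite signs. Axin1 and Axin2, scaffolds of the Wnt pathway, gave -0.07 ± 0.12 (-0.12 ± 0.12 at another Axin1 probe) and 0.12 ± 0.12, and Akap10, an anchor of protein kinase A, gave 0.13 ± 0.13. Rgs6, an R7 protein, gave 0.36 ± 0.41 (0.06 to 0.72 when single arrays were left out).

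Rgs1, a regulator of immune cells, varied widely between arrays. It read 313, 840.5 and 436 units in SHR and 92.2, 578 and 553 units in WKY, a difference of 0.65 ± 0.77 (SE), or -0.22 without WKY 1. WKY 1 was the lowest array, 9.11-fold below the highest. The score of 12 measured interferon response genes was also lowest on WKY 1, at -1.78, and stood at -0.25, 0.55 and -0.48 on the SHR arrays and 0.92 and 1.04 on the other WKY arrays. Its part in the Rgs1 value was not tested.

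Lists of the G proteins on which RGS proteins act, and of their effectors, were read against the 6.7% of all named genes with an unadjusted p under 0.05. Of 13 alpha subunit genes, 0 were higher and 1 was lower in SHR at an unadjusted p under 0.05, and none of the genes in these lists passed after adjustment in limma. That gene was Gna11, a Gq class subunit, at -0.44 ± 0.18 (SE) and -0.33 ± 0.17 at its other probe. Gnaq, its close relative and a substrate of Rgs2 and Rgs4, read 448, 441 and 452 units in SHR and 423, 314 and 406 units in WKY, a difference of 0.24 ± 0.15. Gnai2, a substrate of Rgs4 in the Gi class, gave -0.25 ± 0.13, with all SHR values below the WKY values.

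The counts in the other 4 lists are set beside the same 6.7% of named genes, and nothing particular to a list is read from them. Of 14 beta and gamma subunit genes, 1 was higher and 0 were lower at an unadjusted p under 0.05. It was Gng13, at 0.64 ± 0.25 (SE), and the next smallest p belonged to Gnb4, at 0.96 ± 0.40 (0.57 to 1.35 when single arrays were left out). Of 15 effector genes, 0 were higher and 2 lower, the adenylyl cyclases Adcy4 (-0.43 ± 0.16) and Adcy8 (-0.30 ± 0.12). Of 9 receptor kinases and arrestins, 0 were higher and 1 was lower, the receptor kinase Grk3 (-0.65 ± 0.19, and -0.09 ± 0.66 at a dimmer probe), with Grk4 next (0.33 ± 0.20). Of the 10 measured RGS partners and GoLoco proteins, 0 were higher and 1 was lower, which was Gpr158. Rap1gap followed there at -0.44 ± 0.29. The medians of these 5 lists lay between -0.18 and -0.06, against -0.0009 for 1 probe of each named gene.

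**Figure D5:**
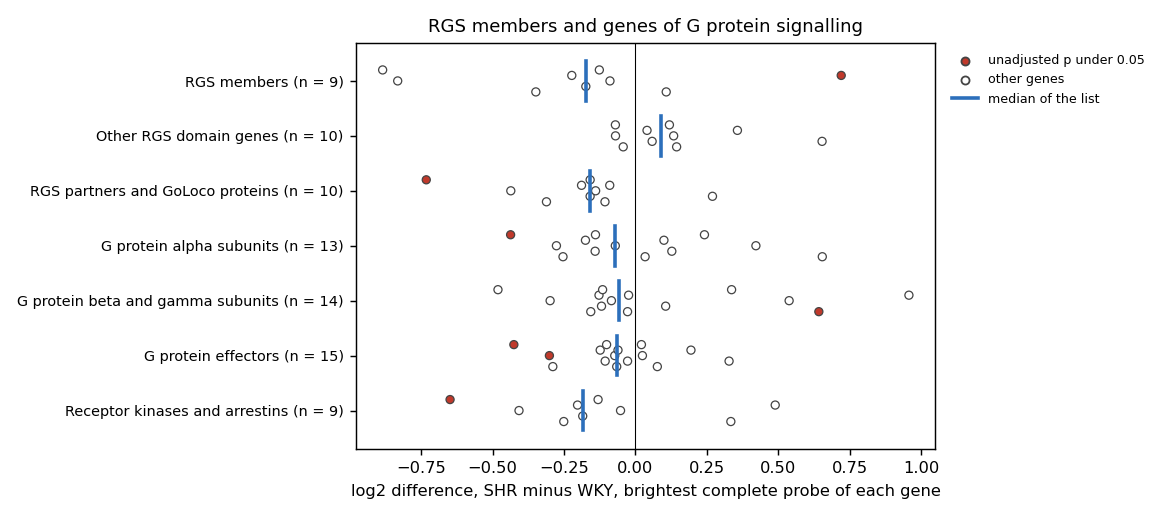
Difference in log2 intensity, SHR minus WKY, of each measured gene in the RGS family and in 6 lists of related genes (1 circle per gene, brightest complete probe; filled, unadjusted p under 0.05 in limma; blue line, median of the list). In the RGS list the filled circle is Rgs4, at 0.72, and no gene passed adjusted p 0.05.

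Markers of other cell types were read beside Rgs4, and no gene of any marker list passed the adjusted threshold in limma. Neuronal markers, the cell class in which Rgs4 is best known, had 4 of 10 measured genes higher and 6 lower in SHR, with a median of -0.12. Scores of the neuronal list were -0.29, 0.32 and -0.26 on the SHR arrays against -0.08, 0.29 and 0.04 on the WKY arrays, so the strains overlapped. Stmn2 did not overlap, at 10740.3 to 14009 units in SHR and 9529 to 10734.5 units in WKY (0.26 ± 0.15 SE). Nefh, the heavy neurofilament chain, was higher at an unadjusted p under 0.05 (0.40 ± 0.15 SE), on dim signals of 46.8 to 75.1 units, and Eno2, the neuronal enolase, gave -0.53 ± 0.29. Astrocyte markers had overlapping scores and a median of -0.02.

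Scores of meningeal fibroblast markers did not overlap (SHR arrays -0.07, 0.56 and 0.54, WKY arrays -0.32, -0.22 and -0.49), and 7 of 9 measured genes were higher. Of these, 4 had an unadjusted p under 0.05 in limma, against 6.7% of all named genes. The smallest p belonged to Aldh1a2 (1.49 ± 0.14 SE, adjusted p = 0.0853) and Slc6a13 (1.62 ± 0.34), both with larger differences than Rgs4. Scores of ependymal and choroid plexus markers did not overlap either, at 0.52, 0.11 and 0.86 against -0.40, -0.84 and -0.25. There 6 of 7 were higher, 2 of them at an unadjusted p under 0.05. These were Ttr (2.66 ± 0.60 SE) and Otx2 (1.47 ± 0.47). All 10 proliferation genes were higher in SHR, by a median of 0.20 with 0 at an unadjusted p under 0.05, and their scores were 0.20, -0.02 and 0.17 against -0.23, -0.03 and -0.09. Oligodendrocyte lineage markers were lower in 13 of 14 genes, 3 of them at an unadjusted p under 0.05, with overlapping scores of -0.64 to 0.26 and 0.16 to 0.44. The smallest p there belonged to Enpp6 (-1.51 ± 0.48 SE) and Mobp (-1.46 ± 0.51). Over all named genes, 50.2% were lower in SHR and 6.7% had an unadjusted p under 0.05 in limma, for each of these lists. Pdgfra, higher in SHR (0.37 ± 0.16 SE), is counted in both the oligodendrocyte and the meningeal list. The part of any of these cell types in the Rgs4 difference was not tested.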

How the data were processed

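CodeLink arrays of 3 SHR and 3 WKY samples were compared on the log2 scale. The authors took spot intensity after background subtraction from the CodeLink software, dropped values under the negative controls plus 2 SD and quantile-normalized the arrays, per the labels, and the deposited intensities come as a series table (used here) and as per-sample tables without normalization between arrays. The software version is not stated in the labels. Values not above 0 (615 on each array) were set to missing, and a probe needed 3 valid values in a strain with no fewer than 2 in its counterpart. The per-sample intensities carry a missing code at only 178 to 238 spots per array. The 615 thus include spots that had a per-sample value, such as the dim Rgs7 probe in SHR 3, and the reason was not tested. All 33249 such probes were fitted together with lmFit and eBayes of limma 3.58.1 in R 4.3.3. Differences are SHR minus WKY, tests are two-sided, and p-values were adjusted by Benjamini-Hochberg with a threshold of 0.05. Intervals are 95% from the moderated fit. The code was checked on simulated data. The number of arrays limits the precision.

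Platform symbols (16753 probes with 1 symbol, 165 with several, 16931 with none) were updated through Entrez identifiers in the RefSeq table of GRCr8. No probe coordinates are given, since the files name no build. The members and gene lists were chosen with earlier results of these data known. The genes named are all member probes, all other measured RGS domain genes, Gnb5, Rgs7bp, Gnaq, Gnai2, and up to 2 genes per list by smallest p, taking the brightest complete probe. The neighbours of Rgs4, the comparison of genes with several probes, and the markers Aif1, Gfap, Trem2, Slc1a2, Stmn2 and Snap25 were added after values were seen. Alternatives covered source, normalization, offset, probe filters, limma's prior, array weights, a replicate block and leaving out each array.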

Additional observations from a re-analysis of the deposited data

How the results depend on the processing

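No RGS probe passed the adjusted threshold in the main setting or in any alternative, and both Rgs4 probes kept their sign in every alternative they entered. Over all probes the count past the threshold was 0 in the main setting, 18 without the dimmest 25% of probes, 28 with limma's trend and robust options, 13 at adjusted p 0.10, 9 with 1 probe per named gene, 5 with probes valid on all 6 arrays, 5 with array weights and 1 with an offset of 50. It was 0 in each fit that left out an array. RGS probes with an unadjusted p under 0.05 numbered 2, and 2 to 3 without single arrays.

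Same-numbered arrays deviated from their strain means with correlations of 0.0011, 0.22 and -0.13, so the numbers were not taken as pairs. With the replicate number as a block, 0 probes passed, 3 RGS probes had an unadjusted p under 0.05, and the Rgs5 difference had an adjusted p of 0.572 in limma.

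Intensities without normalization shifted the median of all probes to 0.12, and with them small differences turned sign, to 0.0427 for Rgs2, 0.10 and 0.0861 for the Rgs12 probes, 0.12 for Rgs9, 0.0932 for Rgs11, 0.10 for Axin1 and 0.0412 for Rgs7bp. Array weights gave 0.0129 for Rgs11. Leaving out single arrays also turned some differences, with ranges of -0.27 to 0.0478 for Rgs2, -0.79 to 0.60 for the first Rgs7 probe, -0.39 to 0.40 for Rgs8, -0.14 to 0.0046 for the second Rgs12 probe, and -0.31 to 0.0357 for the second Rgs14 probe. They were -0.22 to 1.11 for Rgs1 (0.65 in the main setting), -0.13 to 0.11 for Rgs11, -0.0114 to 0.35 for Rgs17, -0.12 to 0.22 for Rgs18, -0.0465 to 0.14 for Rgs19 and -0.19 to 0.0019 for Rgs7bp. The cause of these changes was not tested. The dim probes of Rgs3, Rgs5 and Rgs7 limit what can be said of these genes.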
